A study of Callithrix jacchus with 3 samples.

Results

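NES, VIM, TUBB3, MAP2, NCAM1, DCX, SYP and RBFOX3 encode filament, tubulin, adhesion, synaptic and nuclear proteins that are widely used as markers of neural progenitors and neurons. These 8 neural-type genes were looked up by symbol among 30811 genes counted in extended pluripotent stem cell (EPSC)-like cells of Callithrix jacchus, the common marmoset, which is a New World primate. A row was found for 6 of 8. SYP had no Ensembl gene ID in the name table and the ID given for DCX had no row, so both were dropped and are not analysed here. Gene expression was profiled by bulk RNA sequencing in 3 libraries of 1 group, all derived, per the title, from attempts to convert embryonic stem cells, with no parental or control cells. The labels give no genotype, treatment or passage. The sample titles share the identifier No40, which they do not explain, and differ only in the replicate number, so the libraries may come from the same line. Whether they came from separate cultures is not said. P-values and SDs over these libraries may therefore measure technical spread only. The genes were chosen by their mean level, which was known for most of them from these same libraries, so levels are a description and were not tested.

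Intermediate filament proteins such as nestin (NES) and vimentin (VIM) form the stress-bearing cytoskeleton of progenitor and mesenchymal cells. Beta-III tubulin (TUBB3) and MAP2 belong to the microtubule system of neurons, where MAP2 stabilises dendritic microtubules. NCAM1 is a cell surface adhesion protein, and RBFOX3 encodes the nuclear RNA-binding protein known as NeuN, which marks most mature neurons. In the embryo, neural programmes are set up by transcription regulators of the SOX, PAX and proneural basic helix-loop-helix families. NES and VIM are also known from cells outside the nervous system, cultured pluripotent cells among them.

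The libraries held between 40593244 (replicate 3) and 55224475 (replicate 2) counts. Levels are given as CPM, counts per 1000000 counts after scaling by trimmed means (TMM). CPM takes no account of transcript length, and no lengths for the annotation that was counted were at hand, so an order of levels between genes is an order of CPM only. All 10 pluripotency markers looked up, with DNMT3B highest at 2688 ± 54.8 CPM and SALL4 lowest at 109 ± 43.8 CPM (SD, n = 3), were above 1 CPM. So were 78.3% of the genes tested that have a symbol. Replicates 1 and 2 were close to each other and replicate 3 stood apart. By the exact conditional binomial test, at a Benjamini-Hochberg adjusted p under 0.05 and a difference of at least 1.5-fold, 295 of 23432 genes with a count differed between replicates 1 and 2. Replicate 3 differed in 3962 genes from replicate 1 and in 4143 genes from replicate 2. That test takes 1 library a side, so it compares these libraries and no conditions. If replicates 1 and 2 share an origin, the SDs given below are too small.

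The 6 genes ran from percentile 30.9 to percentile 96.9 of the mean CPM of genes with a symbol. NES stood at 357, 346 and 304 CPM in replicates 1, 2 and 3, a mean of 336 ± 28.3 CPM (SD, n = 3). It was the gene at percentile 96.9. TUBB3 stood at 96.9, 99.3 and 119.8 CPM, with a mean of 105 ± 12.6 CPM and percentile 86.5. For both genes the libraries lay close together, with replicate 3 the lowest for NES and the highest for TUBB3. VIM stood at 84.2, 76.6 and 35.1 CPM, with a mean of 65.3 ± 26.4 CPM and percentile 77.7. Its level in replicate 3 was below those in both other libraries, which were near each other.

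RBFOX3 stood at 19.3, 17.1 and 19.9 CPM, with a mean of 18.8 ± 1.5 CPM (SD, n = 3) and percentile 51.3. A marker of mature neurons thus had a level in the middle of all genes with a symbol, and its libraries lay within 1.5-fold of each other. NCAM1 stood at 5.89, 5.49 and 1.84 CPM, with a mean of 4.41 ± 2.23 CPM. MAP2 stood at 5.28, 5.98 and 1.74 CPM, with a mean of 4.33 ± 2.27 CPM. NCAM1 and MAP2 were at percentiles 31.0 and 30.9, so the description of these markers as high did not hold for them. In both, replicate 3 was far below the other libraries.

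In CPM the order was NES, TUBB3, VIM, RBFOX3, NCAM1 and MAP2. The ranges over the 3 libraries of neighbours in that order did not overlap, except those of NCAM1 and MAP2. The gap between TUBB3 and VIM was narrow, with a lowest TUBB3 level of 96.9 CPM and a highest VIM level of 84.2 CPM. NCAM1 exceeded MAP2 by 1.12 times in replicate 1 and 1.06 times in replicate 3, and was 0.918 times its level in replicate 2. Each of the 6 genes was above 1 CPM in each library. Across all 23432 genes with at least 1 count, 56.0% were called above 1 CPM and 37.8% below it (adjusted p under 0.05 by the quasi-likelihood F statistic of edgeR). Among the genes tested that have a symbol, 78.3% were above it. Nothing is read from the 6 against these shares, since level had chosen them.

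**Figure D1:**
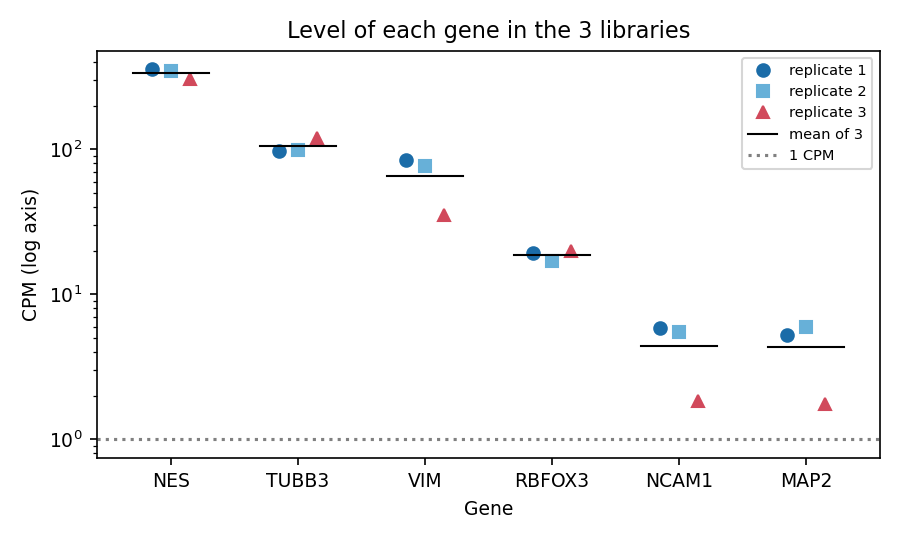
CPM on a log axis of the 6 neural-type genes, 1 symbol for each library and a bar at the mean of 3, with 1 CPM as a dotted line. Replicate 3 lies well below the others for VIM, NCAM1 and MAP2, and near them for NES, TUBB3 and RBFOX3.

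Of the 6 genes, 3 differed between the libraries by more than 1.5-fold and 3 did not. Replicate 3 was lower than both other libraries, by the test and the 1.5-fold limit above, in 3 of 6 genes, VIM, NCAM1 and MAP2, and higher in 0 of 6. Among all genes tested, 8.43% were lower than both in replicate 3 and 4.46% higher. Among the 13719 genes whose mean reached 1 CPM, the shares were 12.7% and 4.1%, and among those with a symbol 12.6% and 3.12%. The median log2 ratio of replicate 3 to replicate 1 was -0.75 over the 6 genes and 0.03 over all genes tested. To replicate 2 it was -0.66 and 0.04. With 3 genes on each side, the median describes none of them well.

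VIM had 4404, 4214 and 1430 counts, and was 2.40 times lower in replicate 3 than in replicate 1 (95% exact counting interval 2.26 to 2.55, adjusted p = 3.72e-204, exact conditional binomial test). Against replicate 2 it was 2.19 times lower (2.06 to 2.32, adjusted p = 1.64e-158, exact test). NCAM1 had 308, 302 and 75 counts, and was 3.20 times lower than in replicate 1 (2.48 to 4.18, adjusted p = 2.05e-22, exact test) and 2.99 times lower than in replicate 2 (2.31 to 3.90, adjusted p = 1.08e-19). The reads have no molecular identifiers, and these intervals take in no error other than that of counting. MAP2 had 276, 329 and 71 counts, and was 3.03 times lower than in replicate 1 (2.33 to 3.99, adjusted p = 6.09e-19, exact test) and 3.44 times lower than in replicate 2 (2.65 to 4.51, adjusted p = 3.95e-25). The intervals of NCAM1 and MAP2 overlapped each other, and in the comparison with replicate 2 that of VIM lay below that of MAP2.

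NES, TUBB3 and RBFOX3 moved by less than 1.5-fold in each pair of libraries. NES had 18695, 19041 and 12389 counts, and its ratio of replicate 3 to replicate 1 was 0.850 (95% interval 0.831 to 0.870). TUBB3 had 5070, 5460 and 4885 counts, and its ratio was 1.24 (1.19 to 1.29). RBFOX3 had 1009, 939 and 813 counts, and its ratio was 1.03 (0.941 to 1.13). To replicate 2 the ratios were 0.877 for NES (0.858 to 0.898), 1.21 for TUBB3 (1.16 to 1.25) and 1.17 for RBFOX3 (1.06 to 1.28). Small differences beyond counting error were thus seen in NES and TUBB3 against both libraries, in opposite directions, and in RBFOX3 against replicate 2 (adjusted p = 0.00335, exact conditional binomial test). Between replicates 1 and 2, 0 of 6 genes differed by the same criteria, against 0.751% of all genes lower in replicate 2 and 0.508% higher. By adjusted p under 0.05 without the 1.5-fold limit, NES and VIM differed there as well, at ratios of 0.969 and 0.910 (adjusted p = 0.0353 and 0.000804, exact conditional binomial test).

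**Figure D2:**
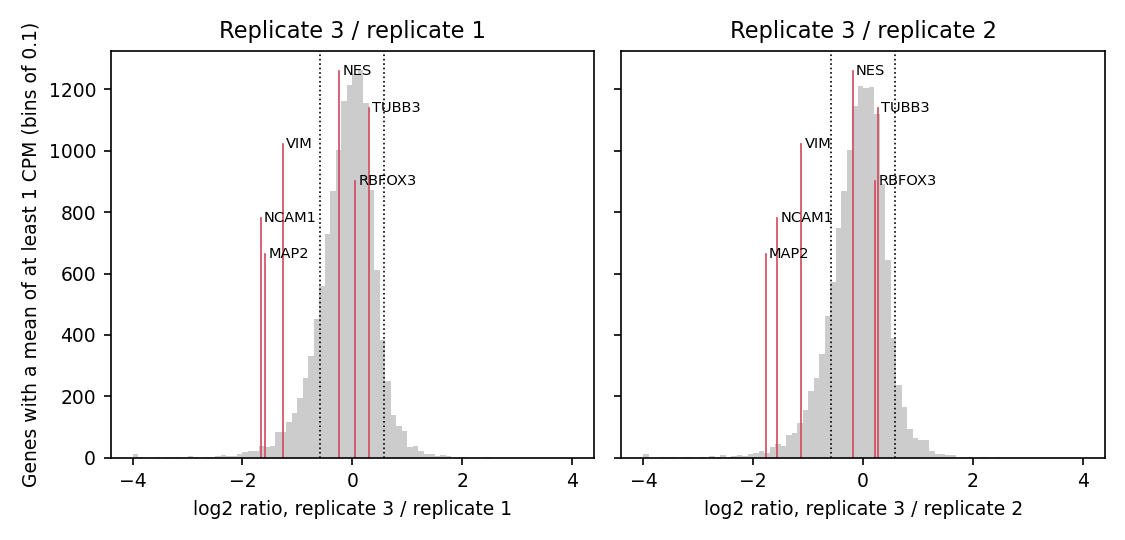
Histograms of the log2 ratio of replicate 3 to replicate 1 (left) and to replicate 2 (right) for the 13719 genes whose mean reached 1 CPM, in bins of 0.1 with values beyond 4 drawn at 4. Red lines mark the 6 neural-type genes at heights chosen for legibility, and dotted lines mark 1.5-fold. VIM, NCAM1 and MAP2 fall in the left tail and the other 3 near the centre.

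The SD of the 3 log2 CPM values ranks the same genes among the genes whose mean reached 1 CPM. MAP2, NCAM1 and VIM were at percentiles 98.8, 98.6 and 96.3 of that SD, and TUBB3, NES and RBFOX3 at 45.2, 32.5 and 30.6. Ratios within a library, which do not depend on transcript length when compared between libraries, changed accordingly. TUBB3 was 1.15 and 1.30 times the CPM of VIM in replicates 1 and 2 and 3.42 times in replicate 3. RBFOX3 was 3.28 and 3.11 times that of NCAM1 in replicates 1 and 2 and 10.8 times in replicate 3. Between VIM and RBFOX3 the ratio fell from 4.36 and 4.49 to 1.76. A cell makeup with fewer cells of a type and less RNA per cell cannot be told apart in bulk samples.

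Genes with the closest profile were sought by the Euclidean distance over the log2 CPM values of the 3 libraries, which weighs level and library pattern together. The nearest genes with a symbol to NES were KDM1A, GNB1 and ZNF512, at distances of 0.055, 0.068 and 0.070. TUBB3 was nearest to ZFYVE1, AHSA1 and DHX30, at 0.043, 0.048 and 0.054. RBFOX3 was nearest to ZNF790, MPG and EFHB, at 0.025, 0.054 and 0.072. Each of these genes was thus matched by genes of similar level and evenness. VIM was nearest to AASS, CD109 and ROR1, at 0.12, 0.13 and 0.14. NCAM1 was nearest to EDA2R, HEG1 and FNIP2, at 0.10, 0.14 and 0.18. MAP2 was nearest to HEG1, EDA2R and NCAM1, at 0.16, 0.21 and 0.22, so the adhesion gene and the microtubule gene lay near each other. With 3 libraries, such likeness is a description only.

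Neural transcription regulators switch on neural programmes, and 27 of 54 listed could be matched. Above 1 CPM were 2 of 27, or 7.41%, and 20 were below (edgeR quasi-likelihood). Of the rest, 3 were not distinguished and 2 had no count. Among genes tested with a symbol, which all had a count, 78.3% were above 1 CPM and 1959 of 12174 were below. NEUROD6 had 0 counts in the 3 libraries, which allows up to 0.0573, 0.0543 and 0.0739 CPM. The median level of the 25 with counts was 0.218 CPM, against 3.26 CPM over all genes tested and 17.4 CPM over genes tested with a symbol. That list was compiled with the low level of neural regulators in these libraries known, so it is not independent evidence of its direction. The 27 that found no match, SOX1, SOX3, OLIG2, POU3F2 and ZIC1 among them, are not analysed here, and nothing is known here of their levels. No SOX gene on that list was matched. SOX2, listed here with the pluripotency markers, was above 1 CPM and is not counted among the regulators.

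The 2 regulators above the level were PAX7 and PAX6. PAX6, a regulator of forebrain and eye progenitors, stood at 1.68, 1.47 and 1.99 CPM, with a mean of 1.71 ± 0.26 CPM (SD, n = 3). PAX7, known from the dorsal neural tube, neural crest and muscle progenitors, was the highest at 6.92, 5.71 and 1.86 CPM. Like NCAM1 and MAP2, it was lower in replicate 3 than in both other libraries. DLX5, with 37, 37 and 0 counts, was the other regulator lower in replicate 3, and GBX2, with 38, 44 and 55 counts, was the one higher. HES5, a Notch target of neural progenitors, was below the level at 0.58 ± 0.09 CPM. SIX6 was the lowest with any count, at 0.012 ± 0.021 CPM.

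Counts of relatives and partners of the 6 genes above 1 CPM are to be read against the 78.3% of genes tested with a symbol. Of the other intermediate filament genes, 9 of 11 matched, or 81.8%, were above 1 CPM, 1 was below and 1 was not distinguished. LMNB1, a nuclear lamina gene of dividing cells, was highest at 360 ± 28.1 CPM. INA, which encodes the neuronal filament protein alpha-internexin, followed at 236, 244 and 274 CPM. NEFM and NEFL, subunits of neurofilaments, stood at 19.0 ± 1.19 and 12.2 ± 3.13 CPM (SD, n = 3), and were named after their values were seen. The astrocyte filament gene GFAP was below the level at 0.50 ± 0.16 CPM, and the genes for the keratins KRT8 and KRT18, which pair in simple epithelia, were not matched. SYNM, whose product synemin joins filaments of vimentin and desmin, was lower in replicate 3 at 14.5, 15.0 and 8.53 CPM, as was PRPH at 53, 42 and 13 counts.

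Of the other tubulin genes only 5 of 17 could be matched, and 4 of 5 were above 1 CPM, a share near that of all genes with a symbol. TUBB4A, which like TUBB3 is known as a neuronal beta-tubulin, stood at 81.8, 89.9 and 135 CPM, and TUBE1, an epsilon-tubulin gene, at 28.6 ± 1.02 CPM (SD, n = 3). TUBB1, the platelet form, was below at 0.16 ± 0.08 CPM. Beta-tubulin genes are alike in sequence and how reads shared between copies were counted is not given, so levels of TUBB3 and TUBB4A are uncertain.

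Microtubule-binding and growth cone genes were above 1 CPM in 18 of 20 cases, or 90.0%, with 0 below. STMN1, a microtubule destabiliser of dividing cells, was highest at 376 ± 70.4 CPM, followed by DPYSL3, a collapsin response mediator, at 297 ± 67.4 CPM (SD, n = 3). DCLK2, a relative of DCX, was the lowest at 0.63 ± 0.30 CPM and was not distinguished from 1 CPM. Its paralogue DCLK1, named after its values were seen, stood at 239 ± 5.81 CPM. Among other microtubule-associated protein genes, MAP4 had 213, 219 and 120 CPM, MAP1A 58.3, 59.8 and 34.8 CPM and MAPT, which encodes tau, 3.02, 3.42 and 1.64 CPM. All of these were lower in replicate 3 than in both others, as was DPYSL3. MAP1B was not, at 97.6, 97.4 and 113 CPM. STMN4 was higher in replicate 3, and the list as a whole had 4 of 20 lower, and 0 of 20 with a 2-fold limit in place of 1.5-fold.

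Of the neural adhesion genes, relatives and partners of NCAM1, 18 of 24 were above 1 CPM, 3 were below and 3 were not distinguished. That was 75.0% above, against 78.3% of genes with a symbol, and so no excess. CADM4 was highest at 268 ± 14.6 CPM and MCAM next at 84.7 ± 8.53 CPM (SD, n = 3), both of the immunoglobulin superfamily. The lowest was the synaptic adhesion gene NLGN1 at 0.022 ± 0.025 CPM, and the paralogue NCAM2 was below the level as well at 0.24 ± 0.13 CPM. In replicate 3, 11 of 24 were lower than in both other libraries and 0 were higher. Among them were ALCAM, CADM1, CADM3, CDH2, CHL1, CNTN1, CNTNAP1, NLGN3, NRXN2 and NRXN3. CDH2, which encodes N-cadherin, stood at 10.6, 11.8 and 3.09 CPM, and CHL1, a close relative of L1CAM, at 55.8, 56.8 and 17.5 CPM. L1CAM itself was even, at 50.3 ± 1.83 CPM. The list's share of 45.8% lower compares with 12.6% of genes with a symbol, and its median log2 ratio of replicate 3 to replicate 1 was -0.66. The list was chosen with earlier results of these data known, so its share is not independent evidence. With a 2-fold limit in place of 1.5-fold, 5 of 24 were lower in replicate 3, and no share of all genes was computed at that limit.

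Of the matched genes of synaptic vesicles and transmitter release, the group to which SYP belongs, 14 of 17 were above 1 CPM, 2 were below and 1 was not distinguished. The share of 82.4% above was near the 78.3% of genes with a symbol. SYPL1, a widely expressed relative of SYP, was highest at 173 ± 3.11 CPM, and VAMP2, a vesicle fusion protein gene, followed at 47.8 ± 5.75 CPM (SD, n = 3). SYN1, a vesicle protein gene of neurons, was above the level at 3.38 ± 1.18 CPM and was higher in replicate 3. GAD2, which encodes an enzyme of GABA synthesis, was the lowest at 0.35 ± 0.03 CPM. Lower in replicate 3 than in both others were, among others, GAD1, SLC17A6 and SV2B.

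RBFOX3 belongs to a group of neuronal RNA-binding genes of which 9 of 11 matched were above 1 CPM, 0 were below and 2 were not distinguished, again a share of 81.8%. PTBP1, a splicing repressor that holds back neuronal exons in other cells, was highest at 388 ± 14.4 CPM, and CELF4 followed at 48.4, 48.2 and 64.8 CPM. The lowest was CELF3 at 0.59 ± 0.24 CPM (SD, n = 3). RBFOX1, the paralogue of RBFOX3, stood at 2.37 ± 0.52 CPM, and ELAVL3, known from neurons, at 18.8 ± 1.32 CPM. NOVA2 and MSI2 were lower in replicate 3, and ELAVL4 was higher.

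In the RefSeq annotation of another assembly, calJac240, 2 long non-coding genes overlap RBFOX3 and 1 such gene and 2 pseudogenes overlap NCAM1. No gene overlaps NES, VIM, TUBB3 or MAP2 there. The strand setting of the counting is not given, so reads of an overlapping gene could not be told apart from those of RBFOX3 or NCAM1. REST, a repressor that keeps neuronal genes silent outside neurons together with RCOR proteins, histone deacetylases and KDM1A, was measured as well. All 10 matched genes of that group were above 1 CPM, with HDAC2 at 544 ± 39.9 CPM, KDM1A at 329 ± 28.5 CPM and RCOR1 lowest at 17.9 ± 5.41 CPM (SD, n = 3). Of genes tested with a symbol, 78.3% were above that level. REST itself stood at 167, 181 and 178 CPM.

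**Figure D3:**
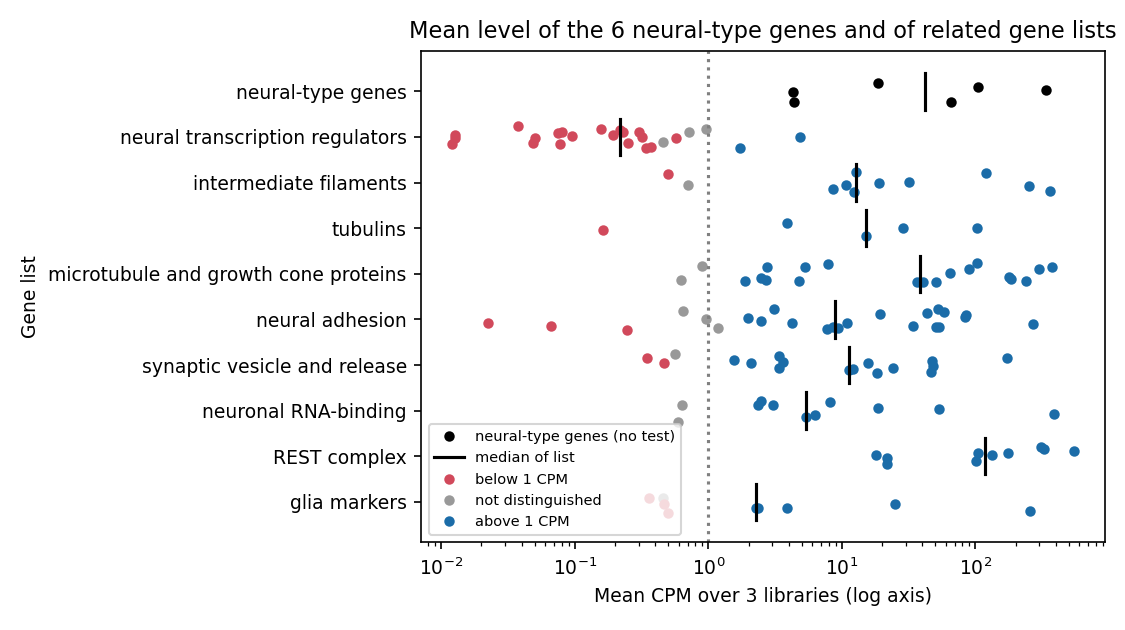
Mean CPM over 3 libraries on a log axis for each matched gene with a count, 1 row of points for each list, coloured by its call against 1 CPM and with a bar at the median. Neural transcription regulators lie mostly to the left of 1 CPM with a median of 0.218 CPM, while the other lists drawn have medians above 1 CPM.

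Markers of other cell types were read beside these genes. Of the glia markers, 5 of 9 matched, or 55.6%, were above 1 CPM, 3 were below and 1 was not distinguished. That share was under the 78.3% of genes tested with a symbol. ERBB3, which is also known from epithelia, was highest at 255 ± 32.4 CPM, while S100B was the lowest at 0.36 ± 0.17 CPM (SD, n = 3). The summed level of the glia list was 308, 303 and 260.0 CPM in replicates 1, 2 and 3. Of the other neuron markers looked up, ELAVL3 and SYN1 are given above, STMN2 stood at 2.47 ± 0.23 CPM and ELAVL4 was not distinguished from 1 CPM at 0.63 ± 0.39 CPM.

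VIM and CDH2 are also markers of mesenchyme. Of the matched mesenchyme markers 10 of 11, or 90.9%, were above 1 CPM, against 78.3% of genes tested with a symbol. COL1A1 was highest at 489 ± 75.0 CPM and FN1 next, and the lowest, SNAI2, was not distinguished at 1.48 ± 0.99 CPM (SD, n = 3). In replicate 3, 5 of 11, or 45.5%, were lower than in both others and 0 higher, against 12.6% and 3.12% of genes with a symbol. Among them FN1 stood at 259, 242 and 73.6 CPM and DCN, the gene of decorin, at 9.25, 9.71 and 0.981 CPM, with COL1A2, PRRX1 and SNAI2 as the others. The summed level of the list was 1021, 959 and 623 CPM, no matched marker was at 0, and TAGLN was even at 62.2 ± 1.37 CPM. Its part in the lower VIM, NCAM1 and MAP2 levels of replicate 3 was not tested. This list too was chosen with earlier results of these data known, so its share of lower genes is not independent evidence. Of the pluripotency markers, LIN28A, LIN28B and SALL4 were lower in replicate 3 as well. These were 3 of 10, or 30.0%, against 12.6% of genes with a symbol. With a 2-fold limit, for which no share of all genes was computed, 1 of 10 was lower.

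**Figure D4:**
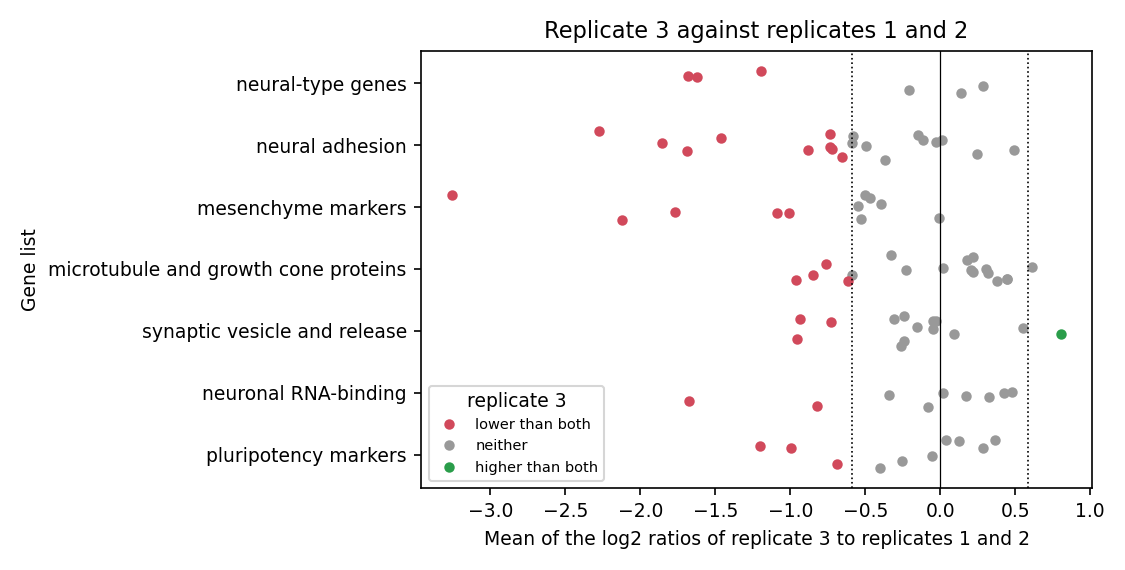
Mean of the log2 ratios of replicate 3 to replicates 1 and 2 for each gene whose mean reached 1 CPM, 1 row of points for each list, with 1.5-fold as dotted lines. Red points are genes called lower than in both other libraries, as 3 of the 6 neural-type genes and 9 of the 19 neural adhesion genes of that level were.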

How the data were processed

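RNA of 3 libraries of EPSC-like cells was sequenced. The tools named in the submitters' processing notes are Trim Galore (0.4.0), featureCounts (1.5.2) and STAR (2.5.3a). Build, annotation, strand setting and the treatment of shared reads are not given in the sources that were at hand. The authors deposited raw counts for each Ensembl gene, as whole numbers without normalization. Symbols came from a name table that matched 12660 of 30811 IDs.

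Counts were scaled with edgeR 4.0.16 TMM factors (R 4.3.3). The 23432 genes with a count were tested against 1 CPM with an intercept-only edgeR model (two-sided quasi-likelihood F statistic). Libraries were compared by a two-sided exact conditional binomial test, called at an adjusted p under 0.05 and 1.5-fold. Both were adjusted by Benjamini-Hochberg over all genes, and checked on simulated data. The libraries simulated for the binomial test held counting error only, so that check does not cover spread beyond counting. Intervals have a level of 95%. The limit for 0 counts is 3 counts.

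Members and gene lists were chosen with earlier results of these data known. Besides the members, the text names the 2 highest genes and the lowest of each list, those lower or higher in replicate 3 than in both others, the 3 nearest in profile, and a few relatives and cell type markers chosen after their values were seen. Some genes that this rule names are not reported here. Alternatives used DESeq2 1.42.0, no TMM factors, filterByExpr, other levels and fold limits, halved counts, and each replicate left out.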

Additional observations from a re-analysis of the deposited data

How the results depend on the processing

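No paired analysis was possible because the labels put all libraries in 1 group. Of the 27 matched neural regulators, 2 were above 1 CPM with 3 libraries, with DESeq2, with no TMM factors, with filterByExpr, with replicates 1 and 2 summed and without each replicate, and 1 was above 2 CPM. Those below numbered 20, with 18 to 22 without 1 replicate, 13 below 0.5 CPM and 5 after filterByExpr, which drops low genes. Over all genes 13129 were above (12974 to 13318 without 1 replicate) and 8851 below, or 1234 after filterByExpr. Of the glia markers 3 were above 2 CPM. Fits on 2 libraries have infinite prior degrees of freedom and ignore a gene's own spread. Against other levels the log2 value turned sign, without passing the test, for PAX6 (-0.22 at 2 CPM), SNAI2 (-0.42 at 2 CPM), GFAP (0.0016 at 0.5 CPM), DCLK2 (0.33 at 0.5 CPM) and CELF3 (0.25 at 0.5 CPM). Without replicate 3, SNAI2 was above 1 CPM and DCLK2 and CELF3 were below it (edgeR adjusted p = 7.53e-13, 0.00908 and 0.00359). The call for GFAP was lost without replicate 2 (adjusted p = 0.0573). GAD2 and S100B, both below 1 CPM, were not distinguished from 0.5 CPM (edgeR adjusted p = 0.132 and 0.246). DCLK2 was below without replicate 1 and CELF3 without replicate 2 (adjusted p = 0.0431 and 0.0444).

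Without 1 replicate, mean CPM ran from 325 to 352 for NES, 98.1 to 109.5 for TUBB3, 55.9 to 80.4 for VIM, 18.2 to 19.6 for RBFOX3, 3.67 to 5.69 for NCAM1 and 3.51 to 5.63 for MAP2, the highest of each without replicate 3 except in TUBB3 and RBFOX3. The 3 of 6 genes lower in replicate 3 numbered 3 under each scaling, the 2-fold limit, the count minimum and halved counts. With the 2-fold limit, 1 gene each of the filament, synaptic, RNA-binding and pluripotency lists was lower in replicate 3 and 0 of the REST group. The share of all genes lower in replicate 3 was not computed at the 2-fold limit, so its counts have no share beside them. Halved counts, summed replicates and the alternatives for list counts between libraries were chosen after seeing the data. A scale per coding length was not run, as no protein or transcript lengths were at hand.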
